A study of Rattus norvegicus with 12 samples.

Results

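Autophagy, mitophagy and nutrient sensing were followed through 47 genes in polyadenylated RNA of cultured rat liver cells. The genes were picked by symbol, but the list was drawn up with earlier results of these data known. All 47 were among the 32623 genes of the count tables, no symbol was repeated, and all 47 passed the expression filter that kept 13539 genes for testing. The labels describe primary hepatic stellate cells. In every group they came from the livers of cirrhotic rats that had breathed carbon tetrachloride chronically, and were isolated on a gradient. Co-culture lasted 24 h across Transwell membranes, through which secreted products pass while the cells stay apart. The other side carried hAEC, epithelial cells of the human amnion, hAMSC, mesenchymal stromal cells of the same membrane, or vehicle, with 15000 viable cells for either type. Each of the 3 groups had 4 libraries. Whether these stem from different animals or cultures is not in the labels, and p-values therefore measure the spread between libraries, which may be technical.

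Autophagy encloses cytoplasm in a double membrane, the autophagosome, and delivers it to the lysosome. The ULK kinase complex starts the process, the Beclin and VPS34 lipid kinase complex marks the site, lipid transfer and conjugation proteins grow the membrane and attach ATG8 proteins to it, and cargo receptors bring in aggregates or damaged mitochondria. The kinase mTORC1 holds the ULK complex and the MiT/TFE transcription factors in check when amino acids are plentiful, through the Rag GTPases and folliculin on the lysosome. In macrophages the same machinery also helps to digest engulfed microbes and debris.

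Of 10 listed markers of the labelled cell type, 9 stayed at or below 8.36 CPM in every library, and markers of macrophages were abundant. Levels are given in CPM, counts relative to the library's total after TMM scaling. The stellate markers Acta2, Col1a1 and Col3a1 had medians of 2.35, 1.93 and 1.42 CPM, Lrat was at 0 in 1 library and at most 0.371 CPM, and Hand2 was at 0 in 9 libraries. The exception was Reln, reelin, with a median of 35.1 CPM and a range of 6.71 to 92.2 CPM. The macrophage marker Cd68 lay between 1525 and 1681 CPM and Csf1r between 1584 and 2983 CPM. Total counts ran from 27382724 to 34922211 per library, mitochondrial genes held 1.73% to 2.61% and the members 0.633% to 0.659% of the counts. The libraries formed 2 sets that cross the groups and that the labels do not name, found here from genes other than the members. The lower-numbered set held hAEC 3 and 4, hAMSC 7 and 8, and vehicle 17 and 18, by the sample numbers of the labels. The higher-numbered set held hAEC 11 and 12, hAMSC 15 and 16, and vehicle 19 and 20. Each set thus had 2 libraries of each group, and treatments were compared with the set in the model. The summed level of 11 measured macrophage markers was 7072 to 7516 CPM in the lower-numbered and 18653 to 20604 CPM in the higher-numbered set. Of these 11, Lyz2 had the widest range in absolute CPM, 984 to 9941 over all libraries, and Adgre1 ran from 56.6 to 794 CPM. Clec4f, at 735 to 1029 CPM, and Cd68 varied far less, so the sum does not weigh the markers evenly.

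With hAMSC, the kinase genes Pink1 and Ulk1 fell, and no other member passed the test against vehicle. Pink1 encodes the kinase that marks damaged mitochondria for mitophagy, and Ulk1 the kinase that starts autophagosome formation. Both were lower in every hAMSC library than in every vehicle library of the same set, and hAEC libraries lay between. Among all genes tested, 0.0812% were called lower with hAMSC and 0.155% higher, with edgeR's quasi-likelihood F test and Benjamini-Hochberg adjusted p below 0.05. In bulk RNA, fewer cells of a type and less RNA per cell cannot be told apart.

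The stretches before the start sites of both genes are shown because these are the members that passed. Those of Sqstm1 and Atg3 are shown beside them, since they were next in order of p among lower members and first among higher members. Each is the 250 bases before the annotated start, 5′ to 3′ on the gene's strand, from RefSeq on the build GRCr8, which is not the rn6 build of the counts. Capitals mark CACGTG, the core of the E-box that MiT/TFE and other helix-loop-helix factors bind.
Pink1, chr5:155825951-155826200, minus strand: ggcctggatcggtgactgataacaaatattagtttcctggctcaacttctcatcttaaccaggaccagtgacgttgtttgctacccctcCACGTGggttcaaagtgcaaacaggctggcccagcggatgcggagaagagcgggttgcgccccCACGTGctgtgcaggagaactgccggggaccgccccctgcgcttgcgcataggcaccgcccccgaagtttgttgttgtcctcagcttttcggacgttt
Ulk1, chr12:51511242-51511491, plus strand: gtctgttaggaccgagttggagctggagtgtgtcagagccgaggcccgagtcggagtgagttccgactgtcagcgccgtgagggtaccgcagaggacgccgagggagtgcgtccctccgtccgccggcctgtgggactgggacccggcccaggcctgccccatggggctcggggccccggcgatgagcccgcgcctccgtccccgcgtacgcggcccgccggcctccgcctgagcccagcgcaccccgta
Sqstm1, chr10:35037751-35038000, minus strand: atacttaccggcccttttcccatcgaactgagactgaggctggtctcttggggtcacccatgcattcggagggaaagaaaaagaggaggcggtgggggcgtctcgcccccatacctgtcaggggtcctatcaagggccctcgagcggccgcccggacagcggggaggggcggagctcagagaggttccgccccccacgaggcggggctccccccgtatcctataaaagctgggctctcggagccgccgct
Atg3, chr11:69159281-69159530, minus strand: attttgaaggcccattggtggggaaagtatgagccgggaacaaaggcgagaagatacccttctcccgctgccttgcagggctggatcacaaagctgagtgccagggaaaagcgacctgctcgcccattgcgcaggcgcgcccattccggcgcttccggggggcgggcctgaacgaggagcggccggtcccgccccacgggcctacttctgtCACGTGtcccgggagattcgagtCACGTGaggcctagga
Pink1 held CACGTG at 161 and 98 bases before the start, and Atg3 at 39 and 16 bases before it. The Ulk1 and Sqstm1 windows held no CACGTG, which says only that these letters are not in this window. CACGTG, which reads the same on both strands, was in 5 of the 38 member windows that have an entry (Atg3, Atg5, Pink1, Bnip3 and Fnip1) and in 5.59% of all 33469 windows of this length. The longer palindrome TCACGTGA, which contains it, was in 1 member window, Atg3, and in 0.657% of all windows. The core of the antioxidant response element, TGACNNNGC, was searched on both strands. It was in 4 member windows (Ulk2, Atg10, Gabarap and Fnip2) and 10.1% of all windows. For each member only the first entry of its symbol was searched, whereas the shares over all windows count every entry.

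Pink1 was at 52.4 and 52.9 CPM in vehicle 17 and 18, 48.3 and 51.2 CPM in hAEC 3 and 4, and 46.8 and 45.3 CPM in hAMSC 7 and 8. In the higher-numbered set it was at 298 and 288 CPM in vehicle 19 and 20, 259 and 284 CPM in hAEC 11 and 12, and 235 and 246 CPM in hAMSC 15 and 16. All 4 hAMSC libraries thus lay below the hAEC and vehicle libraries of their set, although the sets themselves differed several-fold. Pink1 fell by 15.5% with hAMSC against vehicle (log2 -0.24, SE 0.04, edgeR adjusted p = 0.0266). The log2 difference was -0.19 (SE 0.06) within the lower-numbered and -0.29 (SE 0.06) within the higher-numbered set. A difference between these values was not shown (log2 difference of the differences -0.09, SE 0.08, edgeR adjusted p = 0.739).

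Ulk1 was at 35.2 and 36.1 CPM in vehicle 17 and 18, 33.7 and 33.3 CPM in hAEC 3 and 4, and 32.8 and 30.1 CPM in hAMSC 7 and 8. In the other set it was at 79.3 and 78.6 CPM in vehicle 19 and 20, 68.4 and 74.4 CPM in hAEC 11 and 12, and 64.1 and 65.5 CPM in hAMSC 15 and 16. The order of the groups was that of Pink1, with no overlap between groups in either set. Ulk1 fell by 15.1% with hAMSC (log2 -0.24, SE 0.04, edgeR adjusted p = 0.0314). The log2 difference was -0.18 (SE 0.06) in the lower-numbered and -0.29 (SE 0.06) in the higher-numbered set.

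**Figure D1:**
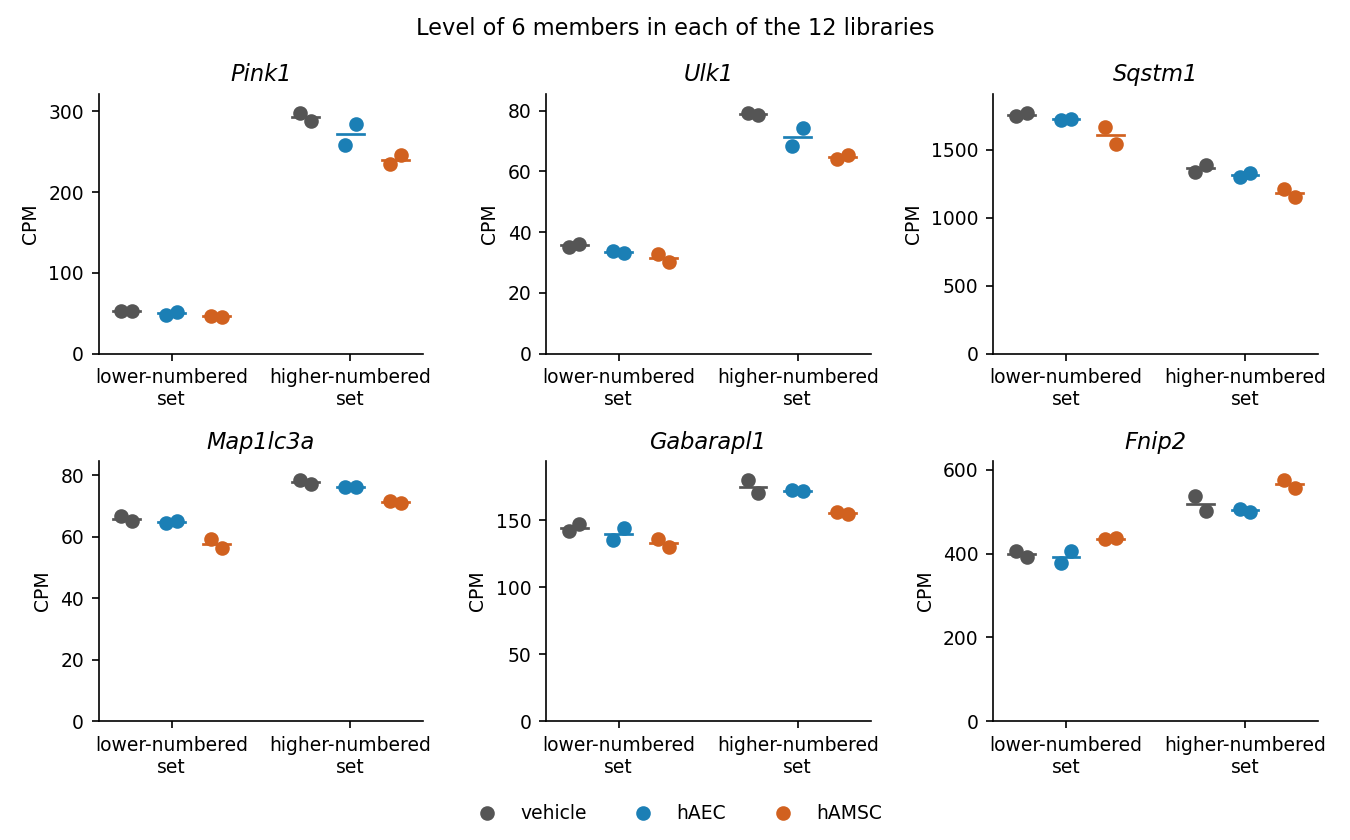
Level of Pink1, Ulk1, Sqstm1, Map1lc3a, Gabarapl1 and Fnip2 in CPM (vertical axes, from 0) in each of the 12 libraries, by library set (horizontal axis) and group (colour). Points are libraries and short lines the mean of 2 libraries. In both sets the hAMSC points of the first 5 genes lie below the vehicle points, and those of Fnip2 lie above them.

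Both genes kept their direction under every setting tried, but their calls did not hold in all of them. Since no hAMSC library reached a vehicle library of its set, leaving out 1 library could hardly turn the direction. Over 26 other settings the log2 difference ran from -0.29 to -0.18 for Pink1, called in 16 of them, and from -0.29 to -0.17 for Ulk1, called in 10. By edgeR's test the Pink1 call was lost without hAMSC 8 (adjusted p = 0.0968), hAMSC 16 (0.0874), vehicle 18 (0.0736), vehicle 19 (0.0973) or vehicle 20 (0.078). The Ulk1 call was lost by that test without hAEC 3 (adjusted p = 0.0601), hAEC 4 (0.0555), hAEC 11 (0.0512), hAMSC 8 (0.143) or hAMSC 16 (0.126), and without vehicle 17 (0.0574), 18 (0.112), 19 (0.114) or 20 (0.146). With the group alone in the model, whose error then holds the gap between the sets, the differences were -0.27 (SE 0.87) and -0.25 (SE 0.41), both with an edgeR adjusted p of 0.99999. DESeq2 called 5 members lower and 2 higher, the additional ones being Sqstm1, Map1lc3a, Gabarapl1, Atg3 and Fnip2. Of all genes with a DESeq2 adjusted p, 0.602% were called lower and 0.928% higher.

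Markers of endothelium were higher with hAMSC in the higher-numbered set than in the other groups there. All 8 of 8 listed were tested, and their summed level there was 116 to 135 CPM with hAMSC, 83.0 to 85.9 CPM with vehicle and 81.9 to 89.9 CPM with hAEC. In the lower-numbered set it was 336 to 423, 391 to 409 and 345 to 353 CPM in the same order, and Stab2 and Clec4g were at 0 in 1 library each. Cdh5, at 43.6 to 187 CPM over all libraries, and Lyve1, at 2.54 to 117 CPM, reached the highest levels of the 8. With the mean log2 level of all 8 endothelial markers added to the model, the hAMSC difference was -0.19 for Pink1 (edgeR adjusted p = 0.0607) and -0.18 for Ulk1 (0.0936). Of the 8 hepatocyte markers 5 were tested, and their sum was made almost wholly by Tf, transferrin, at 509 to 815 CPM, since no other exceeded Alb at 8.08 CPM. That sum was 727 to 819 CPM with hAMSC and 672 to 688 CPM with vehicle in the higher-numbered set, and 554 to 651 and 519 to 583 CPM in the lower-numbered set. With the mean log2 level of the 5 tested hepatocyte markers in the model, the differences were -0.28 for both Pink1 (edgeR adjusted p = 0.0138) and Ulk1 (0.0119). That mean, unlike the sum, gave each of the 5 equal weight, and Ttr, Serpina1 and Ahsg had medians of 0.185, 0.528 and 0.264 CPM. Stellate markers, 8 of 10 tested, summed to 81.7 to 103 CPM with vehicle and 63.4 to 84.9 CPM with hAMSC in the lower-numbered set, of which Reln made 69.8 to 92.2 and 54.8 to 74.0 CPM. The other 9 summed there to 11.1 to 11.9 CPM with vehicle and 8.54 to 10.9 CPM with hAMSC, and in the higher-numbered set to 18.7 to 19.9 and 14.3 to 19.2 CPM. All 10 summed in the higher-numbered set to 27.1 to 30.1 CPM with vehicle and 28.8 to 29.7 CPM with hAMSC. Macrophage markers, 11 of 12 listed being measured, summed in the higher-numbered set to 18653 to 19010 CPM with hAMSC and 19587 to 20604 CPM with vehicle. In the lower-numbered set these groups overlapped, at 7072 to 7406 CPM with hAMSC and 7076 to 7507 CPM with vehicle. The part of the stellate and macrophage markers in the result was not tested.

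The members of next smallest p with hAMSC belonged to cargo capture and to the ATG8 proteins that coat the growing membrane, and none of them passed. Sqstm1 encodes p62, the receptor that links ubiquitinated cargo to ATG8 proteins. It was at 1745 and 1770 CPM in vehicle 17 and 18 and 1668 and 1540 CPM in hAMSC 7 and 8, and at 1336 and 1388 CPM in vehicle 19 and 20 and 1213 and 1153 CPM in hAMSC 15 and 16. Its hAEC libraries lay between, at 1720 and 1722 CPM in hAEC 3 and 4 and 1299 and 1326 CPM in hAEC 11 and 12. The hAMSC difference was -0.17 (SE 0.04, edgeR adjusted p = 0.0806). Without hAMSC 7 or without hAMSC 15 it was -0.20 and -0.17 and passed (edgeR adjusted p = 0.0203 and 0.0438).

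Map1lc3a, one of the genes of LC3, was at 66.6 and 65.0 CPM in vehicle 17 and 18, and at 59.1 and 56.3 CPM in hAMSC 7 and 8. Among libraries of the higher-numbered set it was at 78.3 and 77.1 CPM in vehicle 19 and 20, and at 71.5 and 70.9 CPM in hAMSC 15 and 16. Again no hAMSC library reached a vehicle library of its set. The log2 difference was -0.16 (SE 0.04, edgeR adjusted p = 0.112). Gabarapl1, an ATG8 protein of the GABARAP branch, differed by -0.15 (SE 0.04, edgeR adjusted p = 0.137), with 142 and 147 CPM in vehicle 17 and 18 against 136 and 130 CPM in hAMSC 7 and 8. In the higher-numbered set its vehicle libraries were at 180.0 and 170.4 CPM and its hAMSC libraries at 156 and 155 CPM. The other ATG8 genes, Map1lc3b (-0.02), Gabarap (-0.02) and Gabarapl2 (-0.02), had log2 differences smaller than their SE. All 5 ATG8 genes were below 0 with hAMSC with the set in the model, under each of the 4 scalings tried, beside 48.9% of all genes above 0. Within the lower-numbered set 3 of them were above 0, Map1lc3b (0.03), Gabarap (0.00) and Gabarapl2 (0.04), each by less than its SE.

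A few members were higher with hAMSC, and none of these passed. Atg3, the enzyme that transfers ATG8 proteins to lipid, was at 115 and 108 CPM in vehicle 17 and 18, and at 123 and 121 CPM in hAMSC 7 and 8. Libraries of the other set had it at 90.6 and 90.5 CPM in vehicle 19 and 20, and at 98.6 and 102 CPM in hAMSC 15 and 16. The log2 difference was 0.14 (SE 0.04, edgeR adjusted p = 0.161). Fnip2, a partner of folliculin in Rag GTPase control, was at 406 and 392 CPM in vehicle 17 and 18, 379 and 406 CPM in hAEC 3 and 4, and 434 and 438 CPM in hAMSC 7 and 8. Within the higher-numbered set it was at 538 and 501 CPM with vehicle, 506 and 500.0 CPM with hAEC and 575 and 557 CPM with hAMSC. Fnip2 was thus above both other groups in both sets with hAMSC, by 0.13 against vehicle (SE 0.03, edgeR adjusted p = 0.185) and by 0.16 against hAEC (SE 0.03, edgeR adjusted p = 0.138). Optn, encoding the mitophagy receptor optineurin, differed by 0.12 from vehicle (SE 0.04, edgeR adjusted p = 0.278), and Fnip1 by 0.16 (SE 0.06, edgeR adjusted p = 0.436).

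Over all 47 members, 22 were above 0 with hAMSC and the median log2 difference was -0.01, beside 48.9% of all genes above 0 and a median of 0.00. At an unadjusted p under 0.05 there were 12 members, 4 higher and 8 lower, and 9.68% of all genes. Every hAMSC library was below every vehicle library in both sets for 7 members, Ulk1, Atg7, Atg16l1, Map1lc3a, Gabarapl1, Sqstm1 and Pink1, and above it for 3, Atg3, Optn and Fnip2. Of all genes tested, 4.49% were separated downwards in this way and 3.94% upwards. Other enzymes and scaffolds of the conjugation step were among these: Atg7, which activates ATG8 proteins, differed by -0.12 (SE 0.04) and Atg16l1, which places them on the membrane, by -0.11 (SE 0.05), with edgeR adjusted p of 0.398 and 0.478. Among core members Becn1 (0.04), Map1lc3b (-0.02), Tfeb (0.01), Mtor (0.05), Flcn (-0.04) and Rragd (0.06) had log2 differences near 0 with hAMSC, while Wipi1 stood at -0.19 (SE 0.11) and did not pass.

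**Figure D2:**
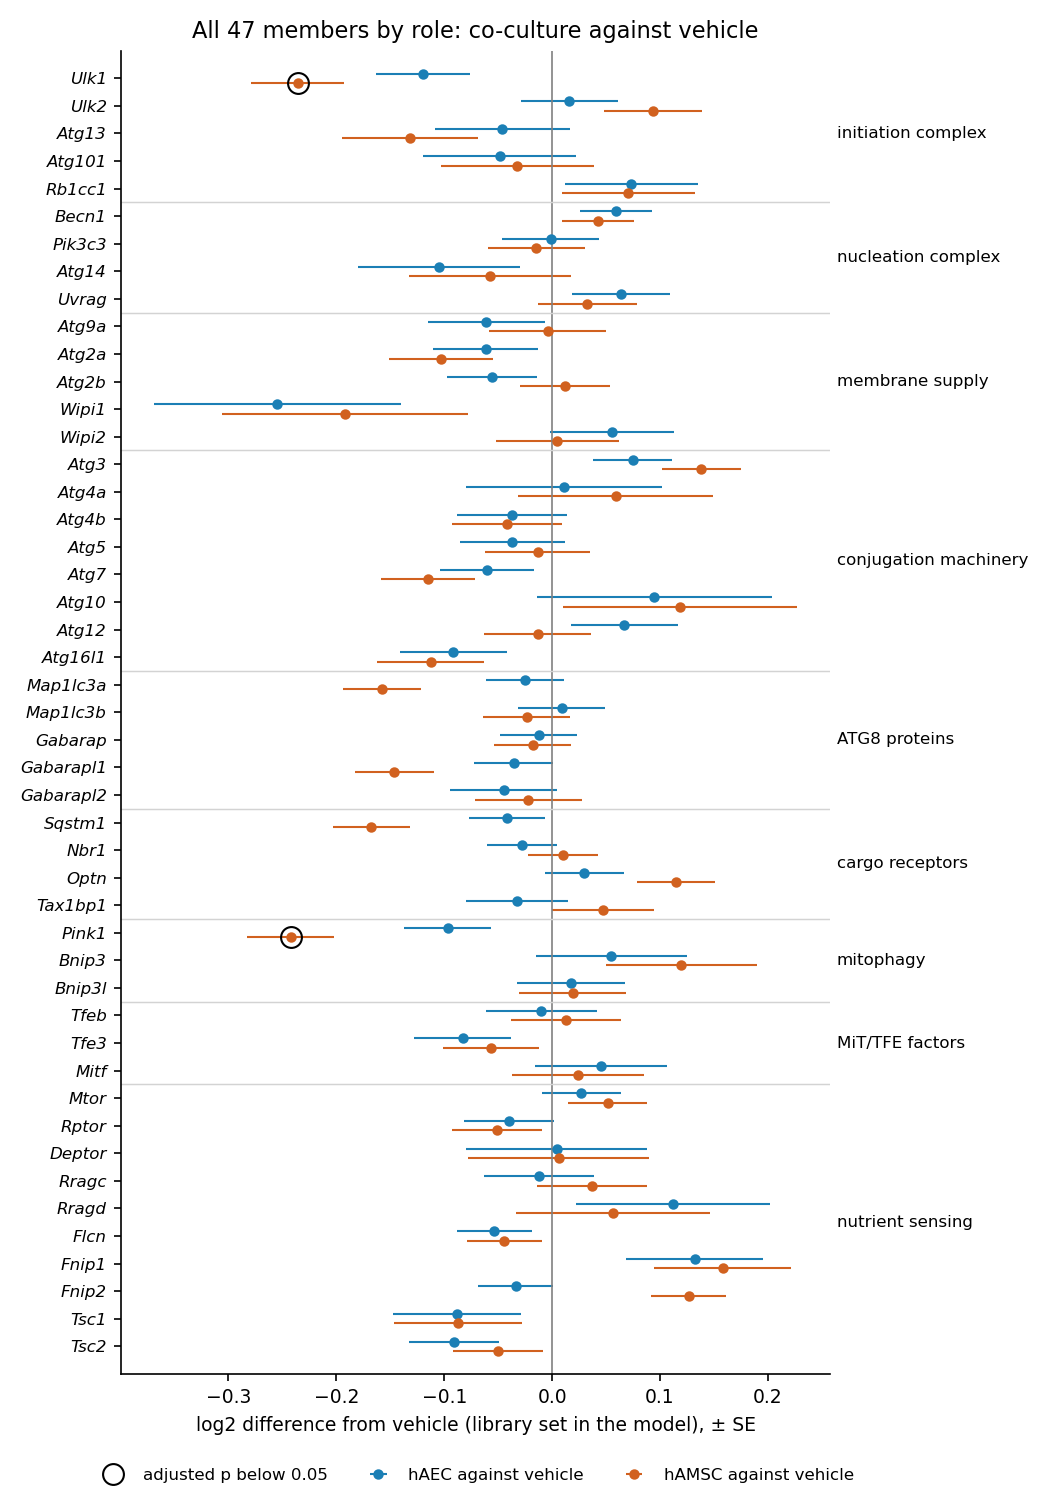
Log2 difference from vehicle, with the library set in the model (horizontal axis; bars are ± SE), of all 47 members for hAEC and hAMSC, grouped by role. Open circles mark the 2 members that passed, Pink1 and Ulk1 with hAMSC at -0.24 each; the hAEC values of both lie between these and 0.

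No member passed for hAEC against vehicle, where 0 of 13539 genes passed by edgeR's test and 759 were at an unadjusted p under 0.05. At that unadjusted level there were 4 members, all lower. DESeq2 and limma voom also called 0 members, and 2 and 0 genes. The members of smallest p were Ulk1 (log2 -0.12, SE 0.04), Pink1 (-0.10, SE 0.04) and Wipi1 (-0.25, SE 0.11) among the lower ones, with edgeR adjusted p of 0.861, 0.881 and 0.881. Wipi1, a lipid-binding protein of the growing membrane, was at 4.87 to 7.78 CPM over all libraries. Fnip1 (0.13, SE 0.06), Atg3 (0.07, SE 0.04) and Becn1 (0.06, SE 0.03), which encodes Beclin of the nucleation complex, led among the higher ones, with edgeR adjusted p of 0.881, 0.881 and 0.92. Of the 47 members 18 were above 0, with a median of -0.03, beside 48.5% of all genes and a median of 0.00. Every hAEC library was below every vehicle library in both sets for Ulk1, Sqstm1, Pink1 and Flcn and above it for Becn1, Uvrag and Fnip1, beside 3.6% and 4.39% of all genes. Under upper-quartile scaling the count of lower members was 7 instead of 4, beside 4.25% of all genes.

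No member passed for hAMSC against hAEC either, where 0.0222% of all genes passed upwards and 0% downwards. At an unadjusted p under 0.05 there were 7 members, 2 higher and 5 lower, beside 6.37% of all genes. DESeq2 called 1 member higher and 1 lower, beside 0.354% and 0.249% of the genes it gave an adjusted p. After Fnip2, Map1lc3a (-0.13, SE 0.04), Pink1 (-0.15, SE 0.04) and Sqstm1 (-0.13, SE 0.04) had the smallest p, with edgeR adjusted p of 0.306, 0.324 and 0.34. Optn (0.09, SE 0.04) and Atg3 (0.06, SE 0.04) followed Fnip2 among the higher members. The falls of Pink1 and Ulk1 with hAMSC were therefore not shown to differ from their values with hAEC, Ulk1 differing by -0.12 (SE 0.04, edgeR adjusted p = 0.606). Ulk1, Map1lc3a, Sqstm1 and Pink1 were lower in every hAMSC than in every hAEC library of both sets, beside 3.69% of all genes, and Tax1bp1 and Fnip2 higher, beside 3.83%. With both co-cultures pooled against vehicle, which shares the vehicle libraries with the comparisons above, Pink1 (-0.17, SE 0.03) and Ulk1 (-0.18, SE 0.04) had edgeR adjusted p of 0.144 and 0.157. No member passed, and 11 were at an unadjusted p under 0.05, beside 8.09% of all genes. DESeq2 called 2 lower, beside 0.205% of the genes it gave an adjusted p. In that comparison 0.0369% of all genes were called lower and 0.00739% higher.

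The hAMSC difference changed sign between the sets for some members, though no difference between sets passed for a member. At an unadjusted p under 0.05 there were 6 of 47 members, beside 1358 of 13539 genes, and all 6 had a lower difference in the higher-numbered set. Mitf, which encodes a MiT/TFE factor, was at 224 and 221 CPM in vehicle 17 and 18 and 270 and 237 CPM in hAMSC 7 and 8. In the higher-numbered set it was at 85.4 and 88.1 CPM in vehicle 19 and 20 and 76.1 and 79.9 CPM in hAMSC 15 and 16. Mitf was thus higher than vehicle in one set and lower in the other, with log2 differences of 0.19 (SE 0.06) and -0.15 (SE 0.06). The difference between the sets was -0.34 (SE 0.09, edgeR adjusted p = 0.14), beside 0.17% of all genes called upwards and 0.0295% downwards for this term. DESeq2 and the fit with no expression filter called it, with adjusted p of 0.0484 and 0.00909, and DESeq2 called 0.154% of the genes it gave an adjusted p lower for this term. Atg14, which directs the lipid kinase complex to autophagosomes, had a difference between the sets of -0.37 (SE 0.12, edgeR adjusted p = 0.325) and Rb1cc1, the scaffold of the ULK complex, one of -0.29 (SE 0.10, edgeR adjusted p = 0.368). Within the higher-numbered set of the model with both factors, Pink1 and Ulk1 passed with hAMSC (edgeR adjusted p = 0.0204 and 0.0367), where 0.162% of all genes were called lower and 0.857% higher. Fitted on the libraries of that set alone, neither passed (edgeR adjusted p = 0.0733 and 0.0887). Within the lower-numbered set no member passed, beside 0.0443% of all genes called lower and 0.0369% higher. Of hAMSC against hAEC within the higher-numbered set no member passed either, beside 0.487% of all genes called higher and 0.0591% lower.

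**Figure D3:**
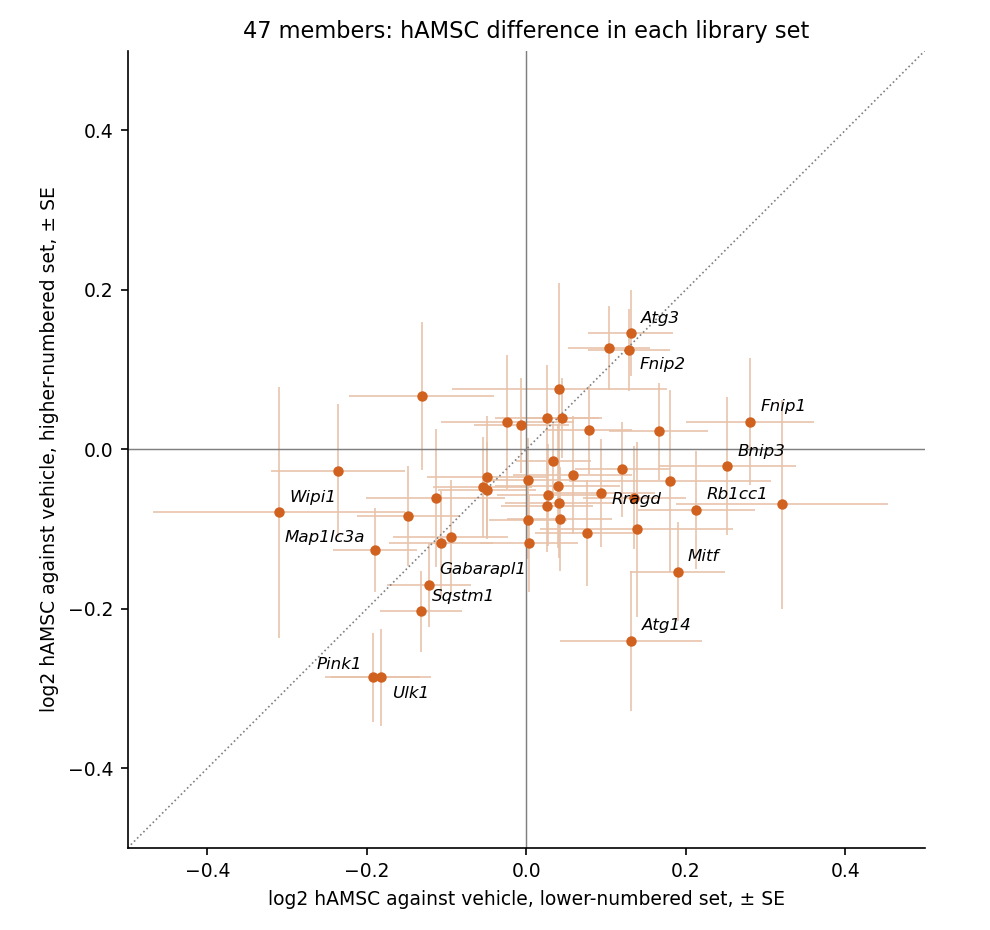
Log2 difference of hAMSC from vehicle in the lower-numbered set (horizontal axis) and in the higher-numbered set (vertical axis) for the 47 members, with bars of ± SE; the dotted line marks equal values. Pink1 and Ulk1 lie at the lower left, at -0.19 and -0.29 and at -0.18 and -0.29; Mitf lies at 0.19 and -0.15.

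Differences between the library sets reached several-fold, where those between treatments stayed under 1.5-fold. They are given without a test, because the sets were found from expression. Of the 47 members, 23 were higher in every library of the higher-numbered set than in any of the other set and 9 were lower. Over all genes tested these shares were 26.9% and 28%, or 54.9% in either direction. The median difference was 0.26 on the log2 scale for the members and -0.01 for all genes, and 4 members were over 2-fold higher and 1 over 2-fold lower without overlap, beside 8.42% and 8.64% of all genes.

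Pink1 differed most, with 45.3 to 52.9 CPM and a median of 49.8 CPM in the lower-numbered set against 235 to 298 CPM and a median of 271 CPM in the higher-numbered set, 5.40-fold. Its level in the higher-numbered set exceeded that of the lower-numbered set in every library. The genes of the mitophagy receptors Bnip3l and Bnip3 differed less. Bnip3l was 1.40-fold higher, and Bnip3 overlapped between the sets at 21.2 to 26.7 and 20.2 to 23.2 CPM. In the initiation complex, Ulk1 was 2.13-fold higher, at 64.1 to 79.3 against 30.1 to 36.1 CPM. Its paralog Ulk2 was 1.63-fold higher, at 99.8 to 110.0 against 59.5 to 70.9 CPM. The scaffold genes of the same complex went in different directions, with Atg13 1.26-fold higher and Atg101 and Rb1cc1 lower in the higher-numbered set, by 1.27-fold and 1.22-fold.

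Nutrient sensing members differed in the same direction as Pink1 or overlapped. Rragd, a Rag GTPase gene that MiT/TFE factors induce, was at 6.99 to 10.2 CPM in the lower-numbered and 29.5 to 34.7 CPM in the higher-numbered set, 3.56-fold. Its paralog Rragc differed far less, 1.23-fold, at 260 to 297 and 332 to 387 CPM. Deptor, which encodes an inhibitor of mTOR, was 2.93-fold higher, at 16.1 to 18.3 against 5.34 to 6.56 CPM. Folliculin (Flcn), which lets mTORC1 act on MiT/TFE factors, was 1.80-fold higher, at 184 to 201 against 103 to 108 CPM. Mtor itself overlapped between the sets, at 105 to 118 and 104 to 109 CPM, as did Rptor, Tsc1, Tsc2 and Fnip1.

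The 3 MiT/TFE factors among the members parted from each other. Mitf was 2.89-fold lower in the higher-numbered set, at 76.1 to 88.1 against 221 to 270 CPM, with no overlap. Tfeb was 1.26-fold higher, at 127 to 152 against 107 to 114 CPM, and Tfe3 overlapped at 60.5 to 67.6 and 59.5 to 68.4 CPM. Tfec, of this family but not a member, was lower in the higher-numbered set, at 81.6 to 95.0 against 129 to 146 CPM. Of the 4 cargo receptor genes, 3 were lower in the higher-numbered set: Optn by 1.99-fold, Tax1bp1 by 1.52-fold and Sqstm1 by 1.32-fold. The autophagy receptor gene Nbr1 was 1.25-fold higher. All 5 ATG8 genes were higher in the higher-numbered set under each of the 4 scalings, from 1.20-fold for Map1lc3a and Gabarapl1 to 1.43-fold for Map1lc3b. The last was at 105 to 114 against 73.1 to 79.8 CPM. Beside these counts by role, 28% of all genes tested were lower and 26.9% higher in that set without overlap. In the conjugation machinery, Atg7 was 1.78-fold higher, at 70.1 to 78.5 against 39.2 to 44.5 CPM, Atg4a was higher, at 8.28 to 9.72 against 6.10 to 7.73 CPM, Atg3 and Atg16l1 were lower by 1.21-fold and 1.27-fold, and 4 of the 8 genes overlapped. The nucleation genes Becn1 and Uvrag overlapped between the sets.

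**Figure D4:**
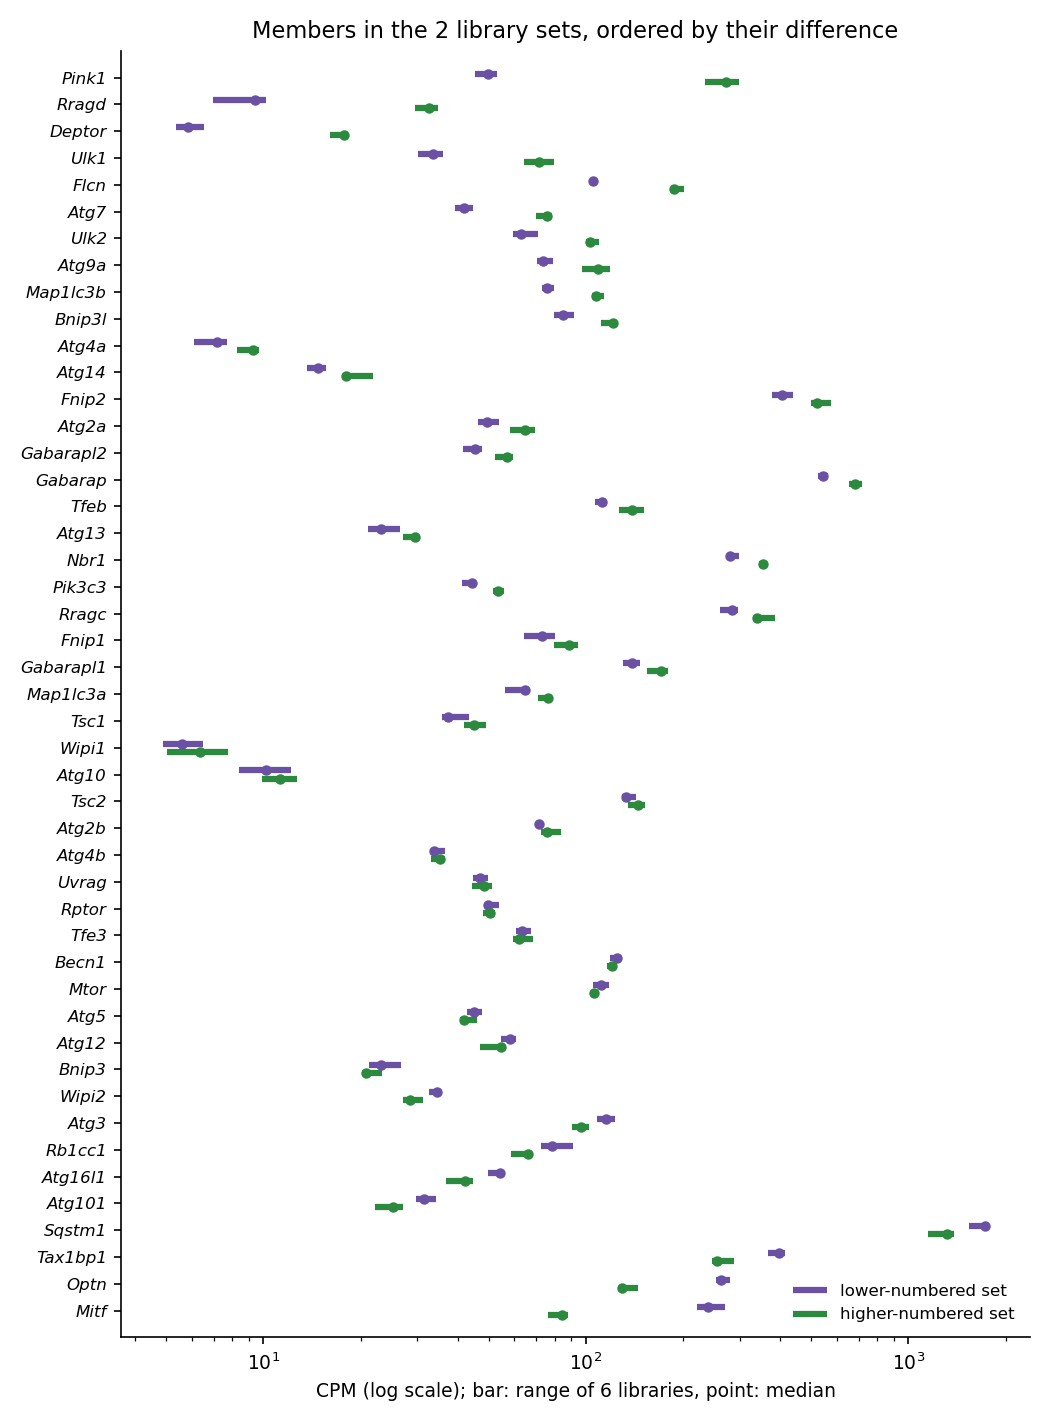
CPM (horizontal axis, log scale) of the 47 members in the lower-numbered and the higher-numbered library set, ordered by their difference; bars span the 6 libraries of a set and points mark the median. Pink1, Rragd, Deptor and Ulk1 stand at the top, over 2-fold higher in the higher-numbered set, and Mitf at the bottom, 2.89-fold lower.

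Among further genes of these pathways, 1 passed with hAMSC. Of 50 other nutrient sensing genes listed, 44 were measured and 43 tested. The list was chosen with earlier results of these data known. Of the 43 genes, 1 was called lower and 0 higher, beside 0.0812% and 0.155% of all genes tested. The 1 that passed was Sesn2, a stress-induced leucine sensor that restrains mTORC1. It was at 109 and 109 CPM in vehicle 17 and 18 and 93.4 and 92.1 CPM in hAMSC 7 and 8. In the other set it was at 67.4 and 71.7 CPM in vehicle 19 and 20 and 59.9 and 56.2 CPM in hAMSC 15 and 16. No hAMSC library reached a vehicle library of its set, and Sesn2 fell by 0.25 on the log2 scale (SE 0.04, edgeR adjusted p = 0.0277). Its call was lost by edgeR's test without hAEC 4 (adjusted p = 0.0529), hAEC 11 (0.0512), hAMSC 8 (0.103) or hAMSC 16 (0.10009), and without vehicle 17 (0.0795), 18 (0.112) or 20 (0.109). It was also lost with the endothelial marker level in the model (0.053), with a fit that is not robust (0.0519), with the 2 groups alone (0.058), within the lower-numbered (0.0651) or higher-numbered set alone (0.168), and with the group alone in the model. Over 26 other settings the Sesn2 difference ran from -0.27 to -0.22, and it was called in 13. Eif4ebp1 (-0.12) and Lamtor3 (0.12) were next in this list and did not pass. The median log2 difference of the list was -0.02 with hAMSC. With hAEC 0 of the 43 passed, and Prkaa1 had the smallest p (log2 0.19, SE 0.05, edgeR adjusted p = 0.86).

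Of 44 other autophagy genes 38 were tested and 0 passed in any comparison, with a median of 0.00 for hAMSC, by edgeR's test. Tecpr1, a tether of autophagosomes to lysosomes, differed by 0.15 (SE 0.05) from vehicle and by 0.22 (SE 0.05) from hAEC, with edgeR adjusted p of 0.278 and 0.142. Snap29, which encodes a fusion protein of the same step, differed by 0.11 from vehicle (SE 0.04, edgeR adjusted p = 0.326). Of 31 lysosomal genes of the CLEAR network, a set driven by MiT/TFE factors, 30 were tested and 0 passed, with a median of -0.01 for hAMSC and 0.00 for hAEC. Naglu, a lysosomal glycosidase gene, came nearest with hAMSC (-0.10, SE 0.04, edgeR adjusted p = 0.436). Between the library sets, 24 of these 30 genes were higher in every library of the higher-numbered set and 2 lower, with a median difference of 0.55 on the log2 scale, beside 26.9% and 28% of all genes. The same counts were 23 and 5 of 38 for the other autophagy genes and 14 and 11 of 43 for the other nutrient sensing genes.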

How the data were processed

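Polyadenylated RNA was measured in 12 libraries, 4 per group. The authors deposited expected counts for each gene. The tools listed in the submitters' processing notes are STAR, RSEM, FastQC, limma and Trim Galore, and rn6 and Rnor_6.0 are the builds; tool versions and roles were not given there. RSEM shares reads among similar genes, so paralogs carry an uncertainty that the tests do not hold. Expected counts were rounded, since 90.1% of values were whole, and entered edgeR 4.0.16 (R 4.3.3): filterByExpr, TMM, a robust quasi-likelihood fit over all genes with group and library set as terms, and Benjamini-Hochberg adjustment over 13539 genes at 0.05. A second fit added their interaction. SE were derived from the log2 difference and the test statistic. Sets were the sides of the first principal component (73.5% of variance) of the 2000 most variable genes other than the members. The biological coefficient of variation was 9.91% with the set in the model and 38.9% without. No replicate pair was close enough to be the same library. The fits were tested on simulated data, but their recovery of differences as small as those reported is not given here. Members, lists and the set as a term were chosen with earlier results of these data known. Named were members that passed, the 3 of smallest p per direction and comparison, the 6 largest set differences per direction, and fixed core genes. Other settings covered scaling, filter, tool (DESeq2 1.42.0, limma 3.58.1 voom), model terms and left-out libraries. Promoter windows were matched by symbol for 38 of 47 members; Rb1cc1, Becn1, Atg9a, Map1lc3a, Bnip3l, Rptor, Deptor, Rragc and Rragd had no entry.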

Additional observations from a re-analysis of the deposited data

Results flagged for a closer look

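Among 141 combinations of a member and a group, 1 library stood far from the other 3 of its group. Fnip1 was at 94.8 CPM in hAMSC 16 and at 78.3 to 80.4 CPM in the other hAMSC libraries. Among 4 like libraries chance flags about 1 in 20 groups. That rate does not hold here, since each group mixes 2 library sets. In its own set Fnip1 was at 79.8 CPM in hAMSC 15, 92.3 and 90.2 CPM with hAEC, and 83.8 and 86.6 CPM with vehicle. Without hAMSC 16 the Fnip1 difference of hAMSC from vehicle was 0.14 (edgeR adjusted p = 0.675). Without hAMSC 15, the other hAMSC library of that set, it was 0.23 and passed (edgeR adjusted p = 0.0418).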

How the results depend on the processing

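With hAMSC, 2 members were called lower and 0 higher. The count of lower calls was 5 by DESeq2, 1 by limma voom, 1 with a fit that is not robust, and 0 with the group alone in the model, with the 2 groups alone, within either set alone or with the endothelial marker level in the model. Leaving out 1 library gave 0 to 3 lower and 0 to 1 higher. The count of higher calls was 2 by DESeq2 and 1 with the endothelial marker level. For hAMSC against hAEC, DESeq2 called 1 higher and 1 lower. For both co-cultures together the lower calls were 2 by DESeq2, 2 with the endothelial and 1 with the hepatocyte marker level, and 0 to 1 with 1 library left out. For the hAMSC difference between sets, 1 member, Mitf, was called lower by DESeq2 and with no expression filter. Members lower in both sets with hAEC numbered 7 instead of 4 when scaled by upper quartile. The marker-level fits and the scalings of the counts in both sets were chosen after the data were seen. Over all genes the number called moved with the setting too, so the member counts above are no result about the members alone. That number ran from 0 to 155 for hAMSC against vehicle (32 in the reported fit), 0 to 10 for hAEC (0), 0 to 80 for hAMSC against hAEC (3) and 0 to 95 for both together (6). For the differences between sets it ran from 4 to 533 for hAMSC (27), 0 to 309 for hAEC (0) and 0 to 260 for hAMSC against hAEC (0). The cause was not tested. The counts of members that parted the library sets stayed at 23 to 24 and 9 to 10 with 1 library left out. No paired analysis was possible because sample numbers are not shared between groups. Among members of low level, Wipi1, Atg10, Atg4a and Deptor had SE of 0.11, 0.11, 0.09 and 0.08 with hAMSC, and the part of depth in these was not tested.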
